A study of Mus musculus with 10 samples.

Results

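Miat and other long noncoding RNAs (lncRNAs) of neural cells were followed in cultures of NSC/NPCs, the neural stem and progenitor cells of the subependymal zone of adult mice, at the onset of differentiation. The group holds 10 genes taken by symbol, Miat, Meg3, Rian, Malat1, Neat1, Dlx6os1, Pantr1, Rmst, Snhg11 and Gas5, out of 48795 genes listed in the deposited table of estimated counts. A row was found for 9 of the 10, and 8 had a count in at least 1 library. Rmst, a lncRNA that binds SOX2 in neural cells, has no row under its GENCODE identifier and is not analysed here. The group was chosen by the measured stage change of Miat, known to be the largest rise in wild-type (WT) cells, so that the WT stage change of the members is described below without a test. All values of Miat, p27KO and genotype values included, are given without a test as well, since it was picked with results of all these libraries known.

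RNA-seq was carried out on 10 libraries from cultures of 10-week-old mice. WT cells were collected as proliferating neurospheres, floating aggregates grown for 3 DIV with 20 ng/ml EGF and 10 ng/ml FGF (PRO, 3 libraries), or after 2 days on Matrigel with FGF followed by 24 h without mitogens in 2% FBS (2 + 1 DIV, hereafter DIFF, 3 libraries). Cells labelled p27KO, from mice with a targeted Cdkn1b gene, which encodes the cell cycle inhibitor p27, were collected at the same stages (2 libraries each). The cells came from mice on a C57BL/6J background according to the methods. Attachment, serum and mitogen withdrawal came together at DIFF and cannot be told apart.

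Library totals ranged from 19190068 to 25291674 counts. Cdkn1b RNA was present in both genotypes. It was at 90.7 to 114 CPM (the count scaled to the library total) in both PRO groups, at 205 to 209 CPM in WT DIFF and at 137 to 140.2 CPM in p27KO DIFF. It was lower in p27KO at DIFF (-0.56 ± 0.09, adjusted p = 0.012, edgeR quasi-likelihood test) and did not pass at PRO. The free text of the p27KO samples names WT cells while their titles and genotype fields read p27KO. Xist was at 2258 to 3595 CPM in the p27KO libraries and at 1.16 to 2.57 CPM in the WT ones, and 4 Y-linked genes summed to at most 0.585 CPM in p27KO and to 189 to 533 CPM in WT. Genotype and sex of the cultures therefore cannot be told apart. Summed levels of 10 neural stem and progenitor markers were 7140.4 to 8909 CPM over all libraries. This range holds opposite changes of single markers given below. No microglia marker of 8 reached 1 CPM, and C1qa, C1qb and C1qc had 0 counts throughout. Of 6 endothelial markers, Cldn5 and Cdh5 had 0 counts throughout, while 3 reached 1 CPM in at least 1 library. Flt1 reached 47.7 CPM in WT PRO and Kdr 10.25 CPM in p27KO DIFF. Tek reached 1.18 CPM in p27KO PRO.

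The members act in several ways that do not require a protein. Miat (also called Gomafu) is a nuclear RNA of neurons and neural progenitors that carries copies of a short repeat bound by splicing factors. Malat1 gathers in nuclear speckles, the storage sites of splicing factors, and Neat1 is the RNA around which paraspeckles are built. Gas5 and Snhg11 are host genes from whose introns small nucleolar RNAs (snoRNAs) are released. Pantr1 lies beside the neural transcription factor gene Pou3f3, Dlx6os1 lies in the Dlx5 and Dlx6 locus of ventral forebrain interneurons, and Meg3 and Rian are expressed from the maternal copy of the imprinted Dlk1-Dio3 domain.

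The repeat of Miat is shown first, since Miat is the member on which the results turn. The gene is annotated as a lincRNA on the minus strand of chromosome 5 at 112213228 to 112229395 (GRCm38, GENCODE vM21), with 6 blocks of exon that cover 9293 bases. Its longest transcript, of 9163 bases, holds 6 copies of TACTAAC, which reads UACUAAC in the RNA. They lie in one exon, in a pair of stretches that are printed with the 7 bases in capitals and with 10 further bases on either side. The first covers bases 4931 to 5082 of the transcript and chr5:112217309-112217460 on the minus strand. The second covers bases 5579 to 5639 and chr5:112216752-112216812, also on the minus strand.
Miat stretch 1: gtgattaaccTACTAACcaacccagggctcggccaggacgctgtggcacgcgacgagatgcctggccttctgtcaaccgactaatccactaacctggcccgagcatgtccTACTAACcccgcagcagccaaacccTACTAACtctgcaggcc
Miat stretch 2: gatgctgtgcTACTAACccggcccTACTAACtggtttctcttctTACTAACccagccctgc

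Copies of TACTAAC were counted on the transcript strand of the longest transcript of each gene. At least 1 was found in 374 of 10155 genes of lncRNA biotypes (3.68%), and in 26 of the 139 whose longest transcript reached 5000 bases (18.7%). As many as 6 were found in 2 lncRNA genes, Miat and AC154442.1. Among the other members Neat1 held 1 in 20771 bases, and Malat1, Meg3, Rian, Dlx6os1, Pantr1, Rmst, Snhg11 and Gas5 held none. A match is a description of the letters and not a binding site.

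The RefSeq promoter window of Miat (GRCm38.p6, chr5:112228899-112229198, minus strand) is given because Miat headed the stage change described next. It is printed with the 50 bases after the annotated start in capitals.
Miat promoter: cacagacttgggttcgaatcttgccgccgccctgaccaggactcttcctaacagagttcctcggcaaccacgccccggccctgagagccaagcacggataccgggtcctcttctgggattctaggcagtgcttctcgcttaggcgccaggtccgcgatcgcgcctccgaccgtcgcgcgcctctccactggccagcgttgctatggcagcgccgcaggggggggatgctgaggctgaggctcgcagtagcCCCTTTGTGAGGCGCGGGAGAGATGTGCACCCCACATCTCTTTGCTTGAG
G and C made up 64.3% of its 300.0 bases and it held 25 CG dinucleotides, where the medians over 32851 RefSeq windows were 52.7% and 7. Next, 3 motifs were searched on both strands. The Sox motif ACAAAG was present once, on the opposite strand at the start, and in 18.7% of all windows. The E-box CAGCTG and the TATA box TATAAA were not found in this window, and were present in 16.3% and 13.6% of all windows.

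Miat was low in neurospheres and much higher at 2 + 1 DIV, in both genotypes. In WT PRO the 3 libraries had 2.87, 0.838 and 1.52 CPM, from 55, 21 and 33 counts. In WT DIFF they had 700.4, 455 and 457 CPM. The p27KO libraries had 0.826 and 0.787 CPM at PRO, from 20 and 16 counts, and 389.5 and 481 CPM at DIFF. The DIFF libraries of each genotype were far above its PRO libraries, and the 2 stages did not overlap.

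The mean level of Miat went from 1.74 ± 1.03 CPM (SD, n = 3) to 537 ± 141 CPM (n = 3) in WT, a ratio of 308. In p27KO it went from 0.807 ± 0.0278 CPM (n = 2) to 435 ± 64.6 CPM (n = 2), a ratio of 539.5. The fitted log2 fold change was 8.30 ± 0.37 (SE) in WT, given as a description. In p27KO it was 9.04 ± 0.48, likewise a description. Miat had the highest fitted rise of the 12859 genes tested in p27KO, where the next were the astrocytic genes Gfap, at 7.13, and Aqp4. Its rank was 6 when a filter kept genes that reached 1 CPM in 4 or more libraries, 7 without a filter, and 3 without either p27KO PRO library.

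Low counts at PRO set the size of these ratios. Of the 10 libraries, 3 had less than 1 CPM of Miat, so that it passed the low-count filter, which discarded genes below 1 CPM in at least 4 libraries. The filter removes genes that are low at PRO and high at DIFF, and a rise among the genes tested is read with that in mind. In cultures that hold several cell types, more cells with Miat and more Miat per cell cannot be told apart.

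Several cell type markers moved with the stage. The summed level of 7 astrocyte markers was 866 to 1232 CPM in the PRO libraries of both genotypes and 2692 to 3223 CPM in the DIFF libraries. Of the 7, 5 rose in p27KO and 2 did not pass. S100b, which did not pass, went the other way in p27KO, from 9.89 to 19.8 CPM at PRO to 4.56 to 9.04 CPM at DIFF. Of 10 neural stem and progenitor markers, 6 rose and 3 fell in p27KO. Nes, an intermediate filament of progenitors, fell from 1476 to 1735 CPM to 180.0 to 216 CPM, and Slc1a3, a glutamate transporter of glia and progenitors, rose from 603.5 to 648 CPM to 1884 to 2049 CPM. Of 15 neuroblast and neuronal markers 12 were tested, and in p27KO Dcx, Tubb3 and Nrxn3 rose, Cd24a fell and 8 did not pass. Dcx was at 0.279 to 3.18 CPM at PRO and 14.5 to 55.9 CPM at DIFF over both genotypes, and Cd24a in p27KO at 291 to 301 and 121 to 149 CPM. The sum of the 15, of which Sp8 was at 0, was 1838 to 2447 CPM at PRO and 2154 to 2717 CPM at DIFF. Most of this sum was Map2, at 1218 to 1836 CPM at PRO and 1391 to 2067 CPM at DIFF, so it says little of the low markers. The 9 oligodendrocyte lineage markers summed to 1906 to 2439.9 CPM at PRO and 880.2 to 1232 CPM at DIFF. The 6 mural and fibroblast markers summed to 1.94 to 3.44 and 30.3 to 99.3 CPM, most of it Acta2 at DIFF. Acta2 was at 0.738 to 1.93 CPM at PRO and 26.2 to 88.5 CPM at DIFF, and Pdgfrb reached 9.49 CPM in p27KO DIFF. Rgs5, Col1a1, Col1a2 and Col3a1 did not exceed 1.27 CPM in any library. The part of all these markers in the Miat rise was not tested.

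**Figure D1:**
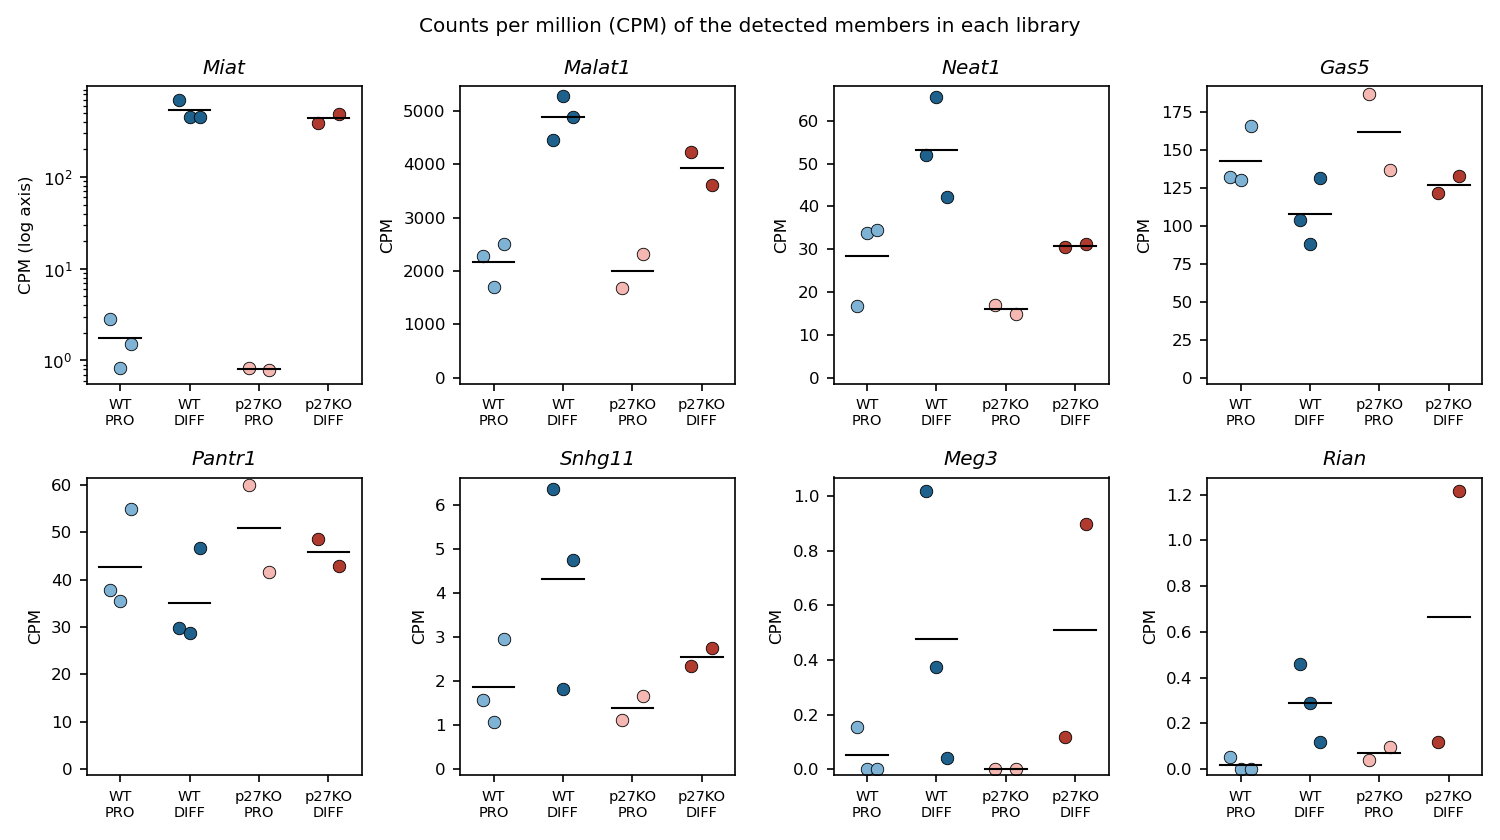
CPM of the 8 detected members in each library, by genotype and stage; points are libraries, lines are group means, and the axis of Miat is logarithmic while the others are linear from 0. Miat is at 0.787 to 2.87 CPM in the 5 PRO libraries and at 389.5 to 700.4 CPM in the 5 DIFF libraries, and Meg3 and Rian are near 0 at PRO.

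Counts assigned to a gene on the opposite strand of Miat followed the same pattern. The lincRNA gene Gm26953 shares 2260.0 exon bases with Miat in antisense and had 0 to 2 counts in the PRO libraries and 216 to 314 in the DIFF libraries. Whether strand was used in counting is not given in the sources used here, and without it reads of both genes cannot be told apart. The 4 small RNA genes inside Miat had at most 1 count in any library.

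Among genes with 10 CPM or more on average, those whose log2 CPM was most like that of Miat over the 10 libraries included Pnisr (Pearson's r = 0.996), Ndrg2 (0.995), Arvcf (0.995) and Kif21a (0.994). Kif21a encodes a kinesin motor. These values describe mainly the separation of the 5 PRO from the 5 DIFF libraries, since the points share these 2 clusters. The likeness was one of pattern and not of size. Arvcf, a catenin of cell junctions, was at 5.66 to 8.39 CPM at PRO and 107 to 171 CPM at DIFF, and Ndrg2, a gene of astrocytes, at 34.4 to 56.9 and 557 to 904 CPM.

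The p27KO stage change was then tested for the other members, and 6 of the 10 passed the low-count filter. Besides Miat, 5 were thus tested. Malat1 and Neat1 rose in p27KO (2 of 5), where 57.7% of all genes tested passed the threshold in either direction and 27.5% were higher. The median log2 fold change of the 6, Miat counted, was 0.89, and that of all genes tested was -0.03. Gas5, Pantr1 and Snhg11 did not pass. The p27KO stages did not overlap for 5 of the 6, all but Pantr1, beside 79.8% of all genes. In WT, the comparison behind the choice of Miat, 5 of the 6 were under the threshold, where 67.4% of all genes were, and the stages did not overlap for 3 of the 6, where 71.9% of all genes did not. Nothing is read from these counts.

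Malat1 was the most abundant member per length. In WT PRO it was at 2287, 1709 and 2499 CPM, and in WT DIFF at 4458, 5287 and 4891 CPM. In p27KO it was at 1687 and 2312 CPM at PRO and at 4239 and 3603 CPM at DIFF. All DIFF libraries were above all PRO libraries, and the groups ran, from low to high, p27KO PRO, WT PRO, p27KO DIFF and WT DIFF, of which the 2 PRO groups overlapped.

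The fitted change of Malat1 was 1.16 ± 0.18 in WT and 0.94 ± 0.21 in p27KO (adjusted p = 0.00401, edgeR). Its gene, a lincRNA at chr19:5795690-5802672 on the minus strand, is a single exon block of 6983 bases. Per kb of exon, the mean level of Malat1 was 310.0 CPM in WT PRO and 699 CPM in WT DIFF. On the same scale Miat was at 0.187 and 57.8, Gas5 at 38.0 and 28.7, Pantr1 at 9.57 and 7.87, Neat1 at 1.36 and 2.56, and Snhg11 at 0.219 and 0.506 CPM per kb. Miat was thus below these 5 members at PRO and second to Malat1 at DIFF on this scale.

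Neat1 lies on the same strand of the same chromosome, at chr19:5824708-5845478, and is likewise a single block of 20771 bases. It was at 16.8, 33.7 and 34.4 CPM in WT PRO and at 52.0, 65.6 and 42.2 CPM in WT DIFF. In p27KO it was at 16.9 and 14.9 CPM at PRO and at 30.45 and 31.2 CPM at DIFF. Within each genotype the stages did not overlap, but the p27KO DIFF libraries were below 2 of the 3 WT PRO libraries.

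Neat1 changed by 0.90 ± 0.26 in WT and by 0.93 ± 0.33 in p27KO (adjusted p = 0.0345, edgeR). This call is near the threshold. It was lost with no filter (adjusted p = 0.145), when replicate numbers were blocked (adjusted p = 0.0504), and without any 1 of the 4 p27KO libraries (0.0908 to 0.135), while DESeq2 gave 0.00621.

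Gas5 and Pantr1 had fitted stage values below 0 in both genotypes, and neither passed in p27KO. Gas5, at chr1:161034422-161038539 on the plus strand, was at 132, 131 and 166 CPM in WT PRO and at 104, 87.9 and 131 CPM in WT DIFF. In p27KO it was at 187 and 137 CPM at PRO and at 121.5 and 133 CPM at DIFF. The p27KO stages did not overlap, and the WT stages did by 1 library. The fitted values were -0.42 ± 0.16 in WT and -0.37 ± 0.19 in p27KO (adjusted p = 0.127, edgeR). The p27KO value passed when replicate numbers were blocked (-0.36, adjusted p = 0.0399, edgeR). It also passed when the p27KO numbers were crossed in the block (-0.36, adjusted p = 0.018, edgeR), and nothing is read from the blocked call.

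Pantr1, at chr1:42590782-42694842 on the minus strand, was at 37.8, 35.4 and 54.8 CPM in WT PRO and at 29.8, 28.8 and 46.6 CPM in WT DIFF. The p27KO libraries had 59.99 and 41.7 CPM at PRO and 48.6 and 42.85 CPM at DIFF. The libraries of all 4 groups overlapped, with the highest value in p27KO PRO and the lowest in WT DIFF. Within each of the 3 pairs of same-numbered WT libraries, Pantr1 and Gas5 were lower at DIFF. The fitted change was -0.30 ± 0.23 in WT and -0.17 ± 0.28 in p27KO (adjusted p = 0.617, edgeR).

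Snhg11 was low in every library. It was at 1.56, 1.08 and 2.95 CPM in WT PRO and 6.36, 1.82 and 4.745 CPM in WT DIFF, and in p27KO at 1.115 and 1.67 CPM at PRO and 2.34 and 2.74 CPM at DIFF. The WT stages overlapped and the p27KO ones did not, on 27 to 61 counts per p27KO library. The fitted change was 1.19 ± 0.47 in WT and 0.84 ± 0.60 in p27KO (adjusted p = 0.254, edgeR). GENCODE vM21 annotates Snhg11, at chr2:158375638-158386145, as protein coding, and the other 9 members as noncoding.

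**Figure D2:**
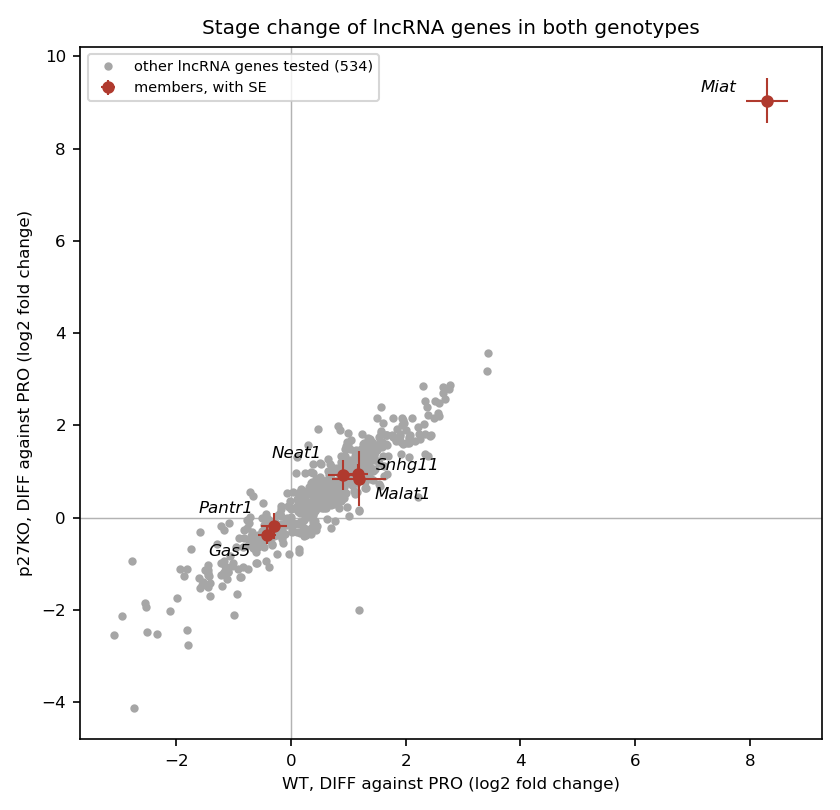
Log2 fold change from PRO to DIFF in WT (x axis) and p27KO (y axis) for the lncRNA genes tested (grey points) and for the 6 tested members (red, with SE). Miat stands at 8.30 and 9.04, above A230057D06Rik (3.43 and 3.56), the next of the 539 lncRNA genes that passed the low-count filter. Malat1, Neat1, Snhg11, Pantr1 and Gas5 lie between -0.42 and 1.19 on both axes.

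Meg3, Rian and Dlx6os1 were at or near the floor. Meg3 (chr12:109541001-109571726) had 3, 0 and 0 counts in WT PRO and 20, 9 and 1 in WT DIFF, and in p27KO 0 and 0 at PRO and 3 and 20 at DIFF. Rian (chr12:109603940-109661716) had 1, 0 and 0 counts in WT PRO and 9, 7 and 3 in WT DIFF, and in p27KO 1 and 2 at PRO and 3 and 27 at DIFF. The counts were thus higher at DIFF as a group, but 1 of the WT DIFF libraries had fewer counts of Meg3 than 1 WT PRO library, and no library reached 1.3 CPM of either gene.

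Both were removed by the filter. Without a filter, Rian passed in p27KO with a log2 fold change of 3.09 ± 1.11 (adjusted p = 0.0411, edgeR), and Meg3 had 6.50 ± 2.68 (adjusted p = 0.119) with both p27KO PRO libraries at 0, a value that depends on the prior count. The 13 snoRNA and 4 miRNA genes annotated within Rian had 0 counts in all libraries where listed. The labels give the molecule as polyA RNA, so these counts do not show whether the small RNAs were present. Of the other genes of the Dlk1-Dio3 domain, Rtl1, Dio3 and Mirg had 0 counts throughout. Dlk1 had 0 to 21 counts in the PRO libraries and 15 to 40 in the DIFF libraries.

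Dlx6os1 (chr6:6820189-6871592) had 0 counts in all 10 libraries, which allows a level of up to 0.119 to 0.156 CPM per library for 3 counts, for counting error only. Dlx5 and Dlx6 had at most 1 count in any library. Dlx1 and Dlx2, the other gene pair of the family, were at 0.991 to 2.97 and at 0.718 to 2.65 CPM over all libraries. Dlx1 fell in p27KO (-1.27 ± 0.35, adjusted p = 0.0111, edgeR) and Dlx2 had 1.03 ± 0.51 (adjusted p = 0.107).

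The protein-coding genes nearest to the 6 tested members moved in different directions. Of the 7 that were tested, Ralgapb and Zbtb37 rose in p27KO, Frmd8 fell and the other 4 did not pass. Frmd8, 4224 bases beyond Neat1 and 47030.0 bases beyond Malat1, went from 109 to 125 CPM at PRO to 48.5 to 49.0 CPM at DIFF in p27KO (-1.29 ± 0.11, adjusted p = 1.47e-05, edgeR). Pou3f3, which encodes a POU-domain factor and lies 926 bases from Pantr1, had 0.12 ± 0.18 (adjusted p = 0.605) at 178 to 272 CPM over all libraries. Zbtb37 overlaps Gas5 on the opposite strand with no shared exon base and changed by 0.71 ± 0.16 (adjusted p = 0.00369). The gene nearest to Miat, the lens crystallin gene Cryba4 at 17098 bases, had at most 1 count in any library.

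p27KO was compared with WT at each stage, which asks whether the p27KO label goes with other levels of these RNAs. Genotype and sex coincide, and Cdkn1b RNA was present in both genotypes, so loss of p27 is not shown by these libraries. None of the 5 members tested besides Miat passed at DIFF (0 of 5, edgeR), where 2.04% of all genes passed, and none at PRO (0 of 5), where 0.0156% passed. DESeq2 also gave 0 at either stage. At an unadjusted p below 0.05, 1 of the 5 was lower at DIFF and 1 at PRO in edgeR, Neat1 in both cases. The interaction of genotype and stage was passed by 0 of 5 members in edgeR and in DESeq2, with 0 at an unadjusted p below 0.05, and by 0.389% of all genes.

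Neat1 had the largest genotype difference among the 5 tested for it. Its p27KO DIFF libraries (30.45 and 31.2 CPM) were below all 3 WT DIFF libraries, and its p27KO PRO libraries (16.9 and 14.9 CPM) were below 2 of the 3 WT ones and beside the lowest, at 16.8 CPM. The fitted difference was -0.78 ± 0.30 at DIFF (adjusted p = 0.260 in edgeR) and -0.80 ± 0.30 at PRO (adjusted p = 0.977 in edgeR). No alternative took the adjusted p below 0.0867 at DIFF or 0.268 at PRO, and the sign was negative in all of them.

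Malat1 was lower in both p27KO DIFF libraries than in any WT DIFF library, by -0.30 ± 0.20 on the log2 scale (adjusted p = 0.511, edgeR), and differed by -0.08 ± 0.19 at PRO. The genotypes did not overlap for 2 of the 6 members at DIFF, Malat1 and Neat1, beside 37.3% of all genes tested, and for 1 at PRO, Miat, beside 17.8%. Pantr1 had 0.40 ± 0.25 at DIFF (adjusted p = 0.505, edgeR) and passed when replicate numbers were blocked (0.63, adjusted p = 0.0348, edgeR). Blocking joins WT and p27KO libraries of the same number, though no source used here pairs libraries across genotypes. Replicate 3 exists in WT only, and nothing is read from this blocked call. Gas5 had 0.25 ± 0.18 and Snhg11 -0.74 ± 0.52 at DIFF, with adjusted p of 0.545 and 0.557 in edgeR. Miat, given as a description, had -0.29 ± 0.28 at DIFF with overlapping libraries and -1.03 ± 0.56 at PRO, where the p27KO libraries had 20 and 16 counts and the WT libraries 21 to 55.

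**Figure D3:**
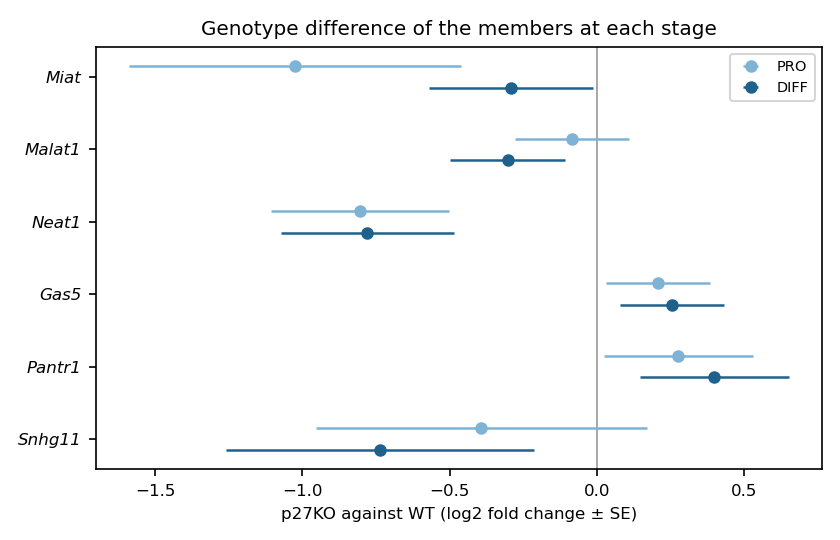
Fitted log2 fold change of p27KO against WT for the 6 tested members at PRO (light) and DIFF (dark), with SE as bars; negative values are lower in p27KO. Neat1 is at -0.80 and -0.78, Miat, shown without a test, at -1.03 and -0.29, and the others lie between -0.74 and 0.40.

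Most host genes of snoRNAs other than the members fell at DIFF. These genes, like Gas5, carry snoRNAs in their introns, and many snoRNAs, though not all, guide the modification of ribosomal RNA. Of the 19 listed besides the members, 16 were matched and 13 tested. In p27KO 10 fell, 1 rose and 2 did not pass, and their median log2 fold change was -1.05 beside -0.03 for all genes tested, of which 30.2% were lower. In WT 9 fell and 1 rose, with a median of -1.01.

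Snhg1 was at 45.9 to 51.6 CPM in WT PRO and 13.5 to 20.4 CPM in WT DIFF, and at 43.4 to 48.8 and 16.1 to 16.7 CPM in p27KO (-1.51 ± 0.17, adjusted p = 5.51e-05, edgeR). Snhg5 fell by 1.47 on the log2 scale in p27KO, from 23.1 to 26.3 CPM to 8.01 to 10.2 CPM. Zfas1 fell by 0.60 and Snhg6 by 1.53, the smallest and the largest of the 10 decreases. Gas5 was thus on the same side as most of the hosts, at -0.37 and without passing.

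Snhg14 was the exception. This transcript of the imprinted Prader-Willi region, which carries the Snord115 and Snord116 clusters and runs antisense to Ube3a, was at 13.6 to 25.8 CPM in p27KO PRO and 59.6 to 80.6 CPM in p27KO DIFF (1.81 ± 0.26, adjusted p = 0.000307, edgeR). In WT it was at 24.95 to 26.05 and 81.3 to 107 CPM. Snhg20 and Epb41l4aos had 0.17 ± 0.22 and -0.37 ± 0.22 in p27KO.

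**Figure D4:**
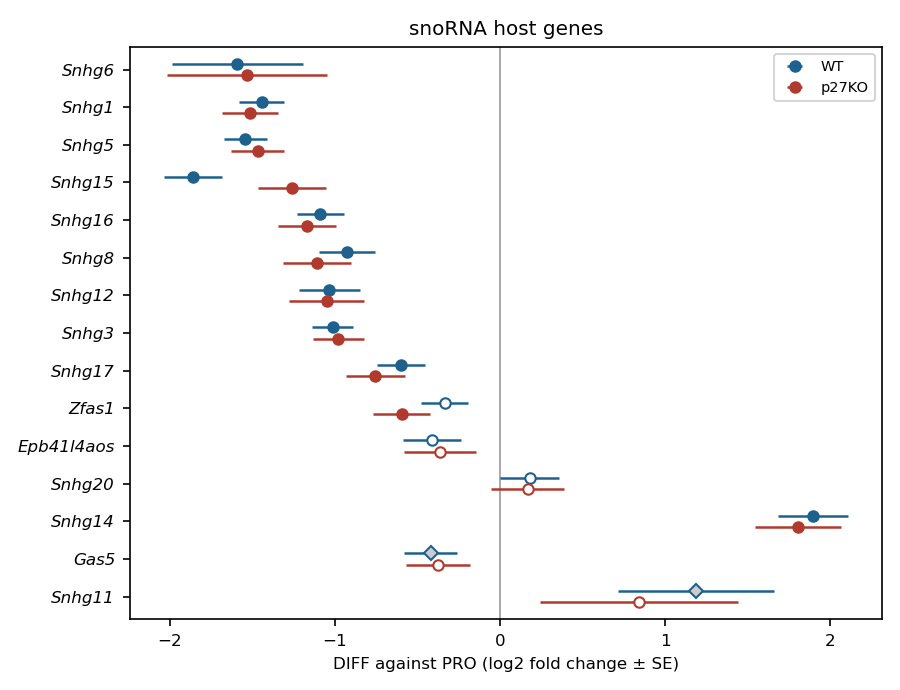
Log2 fold change from PRO to DIFF with SE for 13 snoRNA host genes, and for Gas5 and Snhg11, in WT (blue) and p27KO (red). Filled circles passed an adjusted p of 0.05, open circles did not, and grey diamonds are the members in WT, shown without a test. Snhg6, at -1.59 in WT and -1.53 in p27KO, and Snhg14, at 1.90 and 1.81, mark the ends of the hosts in p27KO.

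Most of the other lncRNA genes that were tested rose. Of 36 listed, 35 were matched and 25 tested, of which 15 rose in p27KO, 1 fell and 9 did not pass, with a median of 1.04, beside 27.5% of all genes higher and 30.2% lower. In WT 17 rose and 3 fell, beside 33.5% and 33.9% of all genes. Hosts of neural microRNAs were among them. Mir100hg, the host of Mir100, Mirlet7a-2 and Mir125b-1, was at 34.8 to 36.05 CPM in p27KO PRO and 257 to 273 CPM in p27KO DIFF (2.88 ± 0.15, adjusted p = 1.42e-06, edgeR). Mir99ahg rose by 1.81 ± 0.16 and Mir9-3hg, a host of the neural microRNA miR-9, by 1.05 ± 0.28 in p27KO.

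Of the listed transcripts of developmental gene loci, Sox2ot and C130071C03Rik rose and Six3os1 did not pass. Sox2ot, within which the Sox2 gene lies, was at 74.9 to 76.3 CPM in p27KO PRO and 181 to 182 CPM in p27KO DIFF (1.24 ± 0.17, adjusted p = 0.000236, edgeR). C130071C03Rik, a transcript of the miR-9-2 locus, rose by 1.19 ± 0.13, and Six3os1 had 1.15 ± 0.47 (adjusted p = 0.0647). Sox1ot, beside Sox1, was removed by the filter. It was at 0.798 to 1.08 CPM in the 5 PRO libraries and 16.3 to 33.1 CPM in the 5 DIFF libraries, and was not tested under this filter. The filter for 1 CPM in 4 or more libraries, which its 5 DIFF libraries meet, kept it. There its fitted value was 4.87 ± 0.28 in WT and 4.69 ± 0.34 in p27KO, given as a description.

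Among lncRNAs that act on chromatin or the nucleus, Firre, an X-linked RNA of nuclear organisation, rose by 1.58 ± 0.10 in p27KO, and Kcnq1ot1, the imprinted silencer of its domain, by 1.48 ± 0.35. Jpx and Ftx of the X-inactivation centre rose by 1.04 ± 0.20 and 0.66 ± 0.18. Trp53cor1 (lincRNA-p21), a target of p53, rose by 1.18 ± 0.38 in p27KO (adjusted p = 0.0237, edgeR) and had 0.51 ± 0.31 in WT.

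Pvt1, the neighbour of Myc, was the gene that fell, from 51.9 to 64.1 CPM to 14.0 to 18.55 CPM in p27KO (-1.85 ± 0.22, adjusted p = 8.39e-05, edgeR). Mir17hg, the host of the miR-17 to miR-92 cluster of proliferating cells, had -0.64 ± 0.37 (adjusted p = 0.166). The widely expressed Tug1 had 0.21 ± 0.10 (adjusted p = 0.0798), and Norad rose by 0.41 ± 0.11 (adjusted p = 0.00972).

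**Figure D5:**
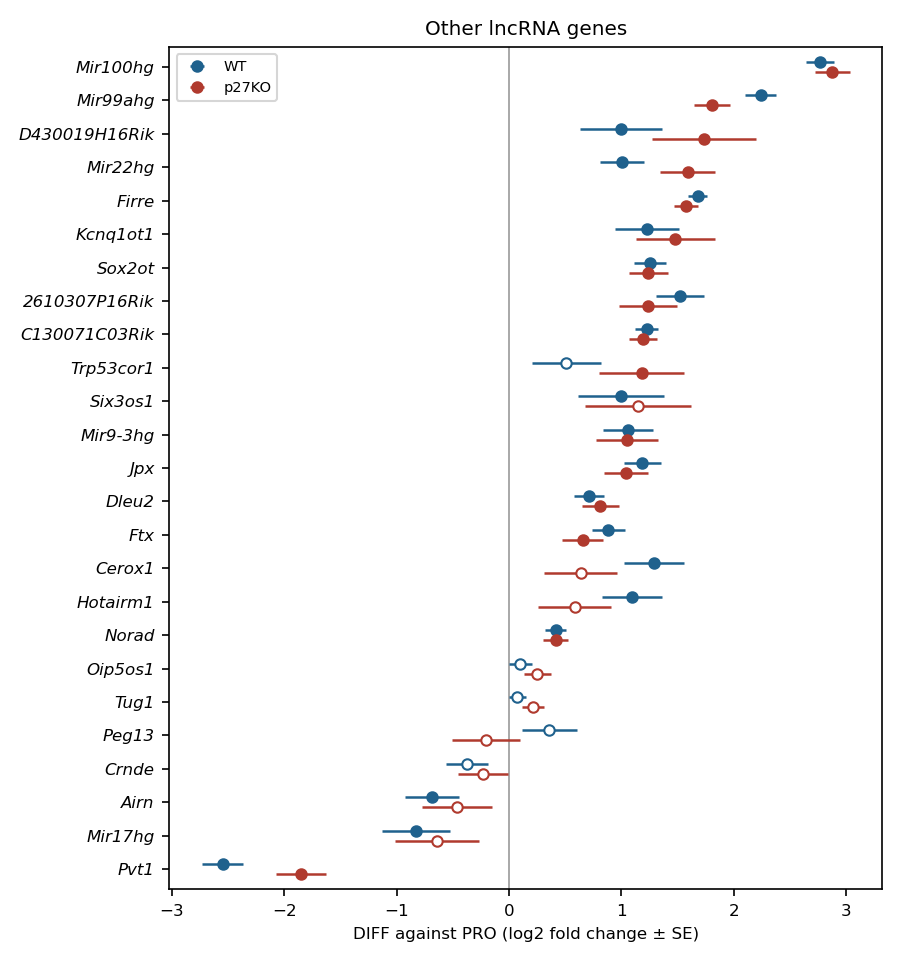
Log2 fold change from PRO to DIFF with SE for the 25 other lncRNA genes tested, in WT (blue) and p27KO (red), ordered by the p27KO value; filled circles passed an adjusted p of 0.05 and open circles did not. The values run from 2.88 for Mir100hg to -1.85 for Pvt1 in p27KO, and 15 genes are filled on the positive side.

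Among all lncRNA genes tested the calls were mostly upward. Of 539 genes of lncRNA biotypes, 239 were higher and 51 lower at DIFF in p27KO (44.3% and 9.46%), where 27.5% of all genes were higher and 30.2% lower. In WT 270 were higher and 73 lower (50.1% and 13.5%), beside 33.5% and 33.9% of all genes. The median log2 fold change of the lncRNA genes was 0.58 in p27KO and 0.60 in WT, and for all genes it was -0.03 and -0.00187.

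Genes for proteins that act with the members moved in both directions. For the paraspeckle proteins that assemble on Neat1, 5 of 9 fell in p27KO, Rbm14 and Dazap1 among them, 1 rose (Hnrnph3) and 3 did not pass, with a median of -0.37, beside 30.2% of all genes lower and 27.5% higher. The 5 became 3 without p27KO DIFF replicate 1 or 2 or p27KO PRO replicate 1, and when only the groups compared were fitted. Dazap1 fell by 1.13 and Rbm14 by 0.70 on the log2 scale, while Hnrnph3 rose by 0.85 ± 0.12 (adjusted p = 0.000199, edgeR). Of 5 genes for proteins of the nuclear speckles, where Malat1 resides, Srsf1 and Srsf2 fell by 0.69 and 1.11, Son rose by 0.46 ± 0.08, and Srrm1 and Srrm2 did not pass.

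The splicing factors known to bind Miat RNA did not move as one. Qk, an RNA-binding protein of glia and progenitors, rose by 0.59 ± 0.11 in p27KO (adjusted p = 0.00119, edgeR). Sf1, which recognises the branch point whose consensus is the repeat printed above, fell by 0.61 on the log2 scale (adjusted p = 0.000493, edgeR), as did Srsf1. Celf3, a neuronal factor, had 1.14 ± 0.55 in p27KO (adjusted p = 0.104).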

How the data were processed

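RNA was extracted from the cultures, converted to cDNA and sequenced, and per the labels the molecule was polyA RNA. According to the methods and the labels, the authors trimmed reads, aligned them with STAR to the Ensembl mouse transcriptome (GRCm38) and ran RSEM per gene. Deposited are the estimated counts of RSEM, stored as whole numbers and not normalized, with totals of 19190068 to 25291674 per library. Strand use is not given in the sources used here.

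Identifiers were matched to GENCODE vM21 (48435 of 48795), and Rmst was not matched. Genes below 1 CPM in at least 4 of 10 libraries were discarded, which left 12859. Libraries were scaled by TMM and fitted as 4 groups with edgeR 4.0.16 (robust quasi-likelihood, limma 3.58.1, R 4.3.3), two-sided, with Benjamini-Hochberg adjustment over all genes tested and a threshold of 0.05. CPM with an SD use library totals without TMM. A log2 fold change is given with its SE. Lengths are of merged exons. Named were the members, the listed genes, the nearest protein-coding genes, genes among the 5 most like Miat, and Cdkn1b. Some genes that this rule names are not reported here. The genes A230057D06Rik, AC154442.1, Gfap, Aqp4 and Dcx were named after their values were seen or as markers. The members and lists were chosen with earlier results of these data known.

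Tried besides were edgeR with the size factors of DESeq2, DESeq2 1.42.0 itself, no filter, a filter keeping genes that reach 1 CPM in 4 or more libraries, only the groups compared, the replicate number as a block, and each library left out. The replicate numbers are from the titles. Deviations from the group means of same-numbered WT libraries of the 2 stages correlated at 0.242, 0.276 and 0.380 across genes (others -0.219 to -0.0794), and were therefore read as pairing these libraries. Those of p27KO correlated at -0.108. The chi-square per gene between replicates was 14.8 to 64.55 times that of sampling noise, so none was a copy. The methods call the replicates biological, and from which culture or animal each library came is not given in the sources used here, so p-values measure the spread between these libraries. At these depths that spread sets the precision, except for Meg3, Rian, Snhg11 and Miat at PRO, where counting error adds. Steps were tested on simulated counts. Python 3.11.15, pandas 2.3.3 and matplotlib 3.10.9 were used for tables and plots.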

Additional observations from a re-analysis of the deposited data

How the results depend on the processing

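The number of members under the threshold in the p27KO stage change counts Miat, as a description without a test. It stayed at 3 under every setting that kept all libraries, of 6 fitted or of 8 without a filter. Neat1 dropped out when p27KO libraries were left out, as given above. Without a filter the number was made up of Miat, Malat1 and Rian, and with the replicate block of Miat, Malat1 and Gas5, which fell. The block changed the calls of Neat1, Gas5 and Pantr1 as given above, took the WT stage members, a description only, from 5 to 6 with Pantr1, those passing between genotypes at DIFF from 0 to 1 and the genes called between genotypes at PRO from 2 to 1, and changed no other call of a tested member. With the p27KO numbers crossed, a setting added after the data were seen, 1 member and 524 genes passed between genotypes at DIFF and 1 gene at PRO. Of all genes, at DIFF, 262 between genotypes became 631 with DESeq2 and 39 with only the groups compared, and at PRO, 2 became 40.0 with DESeq2, 14 without a filter, 9 under the filter for 1 CPM in 4 or more libraries and 1 with only the groups compared. The 50 genes of the interaction became 157 with DESeq2 and 79 without a filter. Leaving out 1 library gave 3 to 4 WT members, 99 to 282 genes between genotypes at DIFF (99 and 126 without p27KO DIFF replicate 1 and 2), 1 to 4 at PRO and 0 to 88 in the interaction (0 without WT PRO replicate 2 or 3 or any 1 of the 4 p27KO libraries). The causes were not tested.

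The signs that turned were of values that did not pass, each with 1 library left out. Pantr1 ranged from -0.39 to 0.0902 in the p27KO stage change. Between genotypes at PRO, Malat1 ranged from -0.35 to 0.14, Snhg11 from -0.73 to 0.11 and Gas5 from -0.0123 to 0.40. In the interaction, Malat1 ranged from -0.45 to 0.0506, Neat1 from -0.14 to 0.29, Pantr1 from -0.10 to 0.39, Snhg11 from -0.85 to 0.0439 and Gas5 from -0.14 to 0.27. Miat ranged from 8.89 to 9.18 in p27KO with 1 library left out. Depth limits Meg3, Rian and Dlx6os1, for which no more than 27 counts were seen in a library.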

Other observations

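The listed snoRNA host and other lncRNA genes were also compared between genotypes. None of the 13 tested snoRNA host genes and none of the 25 other lncRNA genes passed at DIFF in edgeR, with 1 and 4 at an unadjusted p below 0.05, while DESeq2 gave 1 gene of each list, both higher in p27KO. Snhg15 had 4.20 and 4.50 CPM in the p27KO DIFF libraries and 2.09 to 3.01 CPM in the WT ones (0.78 ± 0.19, adjusted p = 0.0869, edgeR). Pvt1 had 14.0 and 18.55 CPM in p27KO DIFF and 8.19 to 12.3 CPM in WT DIFF (0.70 ± 0.20, adjusted p = 0.138, edgeR). For both genes the genotypes did not overlap at DIFF, beside 37.3% of all genes tested.

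At PRO, where edgeR and DESeq2 gave 0 genes of either list, edgeR gave 0 snoRNA host genes and 4 other lncRNA genes at an unadjusted p below 0.05. D430019H16Rik was at 12.8 to 45.6 CPM in WT PRO and 11.6 to 12.35 CPM in p27KO PRO (-1.37 ± 0.43, adjusted p = 0.870, edgeR), and at 54.0 to 72.4 CPM in WT DIFF and 40.3 to 40.9 CPM in p27KO DIFF (-0.63 ± 0.41, adjusted p = 0.516, edgeR). It rose at DIFF in p27KO (1.74 ± 0.46, adjusted p = 0.0111, edgeR). Snhg15, Pvt1 and D430019H16Rik were chosen for this paragraph after their values were seen, and genotype and sex coincide in these values too.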
